A study of Mus musculus with 10 samples.

Results

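The fibrillar collagen chains followed here are Col1a1, Col1a2, Col3a1, Col5a1, Col5a2, Col5a3 and Col11a1, which are 7 of the 11 fibrillar collagen genes of the mouse and 7 of the 60676 rows of the count table. They were picked by symbol, through the Ensembl identifier of each row, and with earlier results of these libraries known. Their levels and differences are therefore descriptions and carry no p-value. Transcripts were counted by RNA sequencing in cultures of MC38, a mouse colon carcinoma line, and B16, a mouse melanoma line. Every culture carried a knockdown of Sdc1, the gene of the heparan sulphate proteoglycan syndecan-1, and every culture received 10 ng/ml of interferon gamma (IFNγ) over 24 h. MC38 gave 3 groups of 2 libraries: knockdown alone, knockdown plus the c30 mutant of Sdc1, and knockdown plus the ect mutant. B16 gave 2 groups of 2 libraries, knockdown alone and knockdown plus wild-type Sdc1. What the c30 and ect forms change in the protein, how the knockdown cells were selected and whether they were clones could not be learned from the sources used here, and no culture without the knockdown or without IFNγ is analysed here. Nothing in the labels ties the 2 libraries of a group to separate cultures, so the tests below measure the spread between libraries, and that spread may be technical.

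Fibrillar collagens are made as procollagen chains that wind into rope-like trimers in the endoplasmic reticulum. The chains are hydroxylated on proline and lysine, folded with the help of the chaperone encoded by Serpinh1, exported, trimmed of their propeptides and cross-linked into fibrils. Type I collagen is built from Col1a1 and Col1a2 chains and is the main fibril former of skin, tendon and bone. Type III, a trimer of Col3a1 chains, forms mixed fibrils with type I in distensible tissues and wounds. Type V, built from Col5a1 with Col5a2 and in some tissues Col5a3, sits in the core of type I fibrils and limits their width, and Col11a1 serves a like role in cartilage. In solid tumours most fibrillar collagen is attributed to fibroblasts, and the libraries here came from cultured tumour lines.

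Totals per library ran from 11349447 to 15041133 counts, so that 3 counts, the limit taken for a count of 0, equalled 0.199 to 0.264 CPM (counts scaled to 1000000 per library). Sdc1 stood at 24.5 and 29.99 CPM in the MC38 knockdown, 97.0 and 99.5 CPM with c30, 22.4 and 25.2 CPM with ect, 40.7 and 43.1 CPM in the B16 knockdown, and 71.1 and 56.9 CPM with wild-type Sdc1. The ect libraries thus did not rise above their knockdown libraries in Sdc1, and why was not tested. Of 14 epithelial markers, at most 2 reached 1 CPM in any MC38 library, although the line is of colon origin, while 8 of 12 fibroblast and pericyte markers did so in each of them. Those fibroblast and pericyte markers summed to 832 to 949 CPM in MC38 and 47.2 to 60.4 CPM in B16. Leukocyte markers summed to at most 1.80 CPM and endothelial markers to at most 6.68 CPM. Melanocyte markers summed to 22662 to 23905 CPM in B16 and 293 to 420 CPM in MC38. The 2 B16 wild-type libraries stood further apart than any other replicates, with a chi-square per degree of freedom over genes of 23.0 against 4.13 to 7.06 in the other groups.

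The promoter stretches of 4 members are shown because these genes led the order of levels, Col3a1 and Col1a2 in MC38 and Col5a1 and Col5a3 in B16. Col5a1 itself was almost level between the knockdown groups of the lines. RefSeq promoter entries on build GRCm38.p6 matched 5 of the 7 members, and none was matched for Col1a1 and Col5a2. Each line gives the bases upstream of the RefSeq start, 5′ to 3′ on the gene's strand, and capitals mark, on either strand, CCAAT (the letters bound by NF-Y), the TATA box letters TATAA, or the Sp1 letters GGGCGG.
Col3a1 (chr1:45311288-45311537, plus strand): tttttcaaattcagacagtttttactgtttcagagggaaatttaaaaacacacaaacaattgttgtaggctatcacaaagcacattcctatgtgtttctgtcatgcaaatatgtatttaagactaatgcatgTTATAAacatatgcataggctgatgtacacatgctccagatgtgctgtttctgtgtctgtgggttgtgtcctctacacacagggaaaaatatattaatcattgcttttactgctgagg
Col1a2 (chr6:4505368-4505492, plus strand, the 125 bases before the annotated principal transcript): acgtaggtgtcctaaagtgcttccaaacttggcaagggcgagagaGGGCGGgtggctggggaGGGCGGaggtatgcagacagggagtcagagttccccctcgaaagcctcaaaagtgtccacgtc
Col5a1 (chr2:27886175-27886424, plus strand): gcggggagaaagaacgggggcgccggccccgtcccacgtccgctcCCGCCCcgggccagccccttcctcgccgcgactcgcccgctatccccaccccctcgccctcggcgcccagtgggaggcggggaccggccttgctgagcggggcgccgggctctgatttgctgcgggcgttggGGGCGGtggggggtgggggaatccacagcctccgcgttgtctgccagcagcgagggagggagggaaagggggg
Col5a3 (chr9:20815068-20815317, minus strand): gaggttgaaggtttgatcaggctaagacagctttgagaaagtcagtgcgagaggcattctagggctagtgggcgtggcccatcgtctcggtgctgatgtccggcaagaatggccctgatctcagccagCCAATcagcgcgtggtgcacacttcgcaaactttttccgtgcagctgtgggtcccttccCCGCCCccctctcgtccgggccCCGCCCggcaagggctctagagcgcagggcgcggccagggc
Over the 250 bases, GC content was 35.2% for Col3a1, 62% for Col1a2, 76.4% for Col5a1, 62.8% for Col5a3 and 62.4% for Col11a1, against a median of 52.4% over 32851 RefSeq windows of that length. The Col3a1 window held 0 CpG dinucleotides and 2 overlapping matches to TATAA, 1 on each strand of the same 6 letters. The Col5a1 window held 28 CpG dinucleotides. Each of the windows of Col1a2, Col5a1, Col5a3 and Col11a1 held 2 matches to GGGCGG, and 32.7% of all windows held at least 1. CCAAT was found in the windows of Col1a2, Col5a3 and Col11a1 and in 33.8% of all windows, and TATAA in 22.8%. These matches describe letters only.

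In MC38 the type III chain Col3a1 and the type I chain Col1a2 led, and Col11a1 was at or below the limit of detection. Levels of different genes are compared as CPM per kilobase of the longest principal transcript in GENCODE M21. On that scale Col3a1 ranged from 33.0 to 57.0 over the 6 MC38 libraries (median 34.1), Col1a2 from 28.5 to 47.8 (median 32.5), Col5a1 from 7.90 to 12.1 (median 8.55), Col5a2 from 7.87 to 11.8 (median 8.51), Col1a1 from 1.66 to 3.84 (median 3.20) and Col5a3 from 0.782 to 1.63 (median 1.17). Col3a1 and Col1a2 together therefore led in every MC38 library, at 39.3% to 42.7% and 34.7% to 38.4% of the summed level of the 7 genes. Col3a1 was 1.14 to 1.19 times Col1a2 with the knockdown or c30. With ect it was 1.06 times (95% counting interval 0.994 to 1.12) and 1.04 times (0.983 to 1.09), so these neighbours in the order were not separated beyond counting error there. Col5a1 and Col5a2, the chains that pair in type V collagen, had a ratio between 0.963 and 1.09 in the 6 libraries. Its counting interval held 1 in every one of them except knockdown replicate 1, where it ran from 1.005 to 1.19.

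B16 had another order, with the type V chains Col5a1 and Col5a3 first. Per kilobase, Col5a1 ranged from 7.83 to 11.04 CPM over the 4 B16 libraries, Col5a3 from 3.12 to 3.77, Col1a2 from 1.77 to 2.28, Col1a1 from 0.350 to 0.704 and Col3a1 from 0.115 to 0.256. None of these ranges overlapped another. Col5a1 made up 56.0% to 64.3% and Col5a3 19.4% to 27.0% of the summed level in B16. At the bottom, Col11a1 (0.0103 to 0.0681) and Col5a2 (0 to 0.0597) were not separated.

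**Figure D1:**
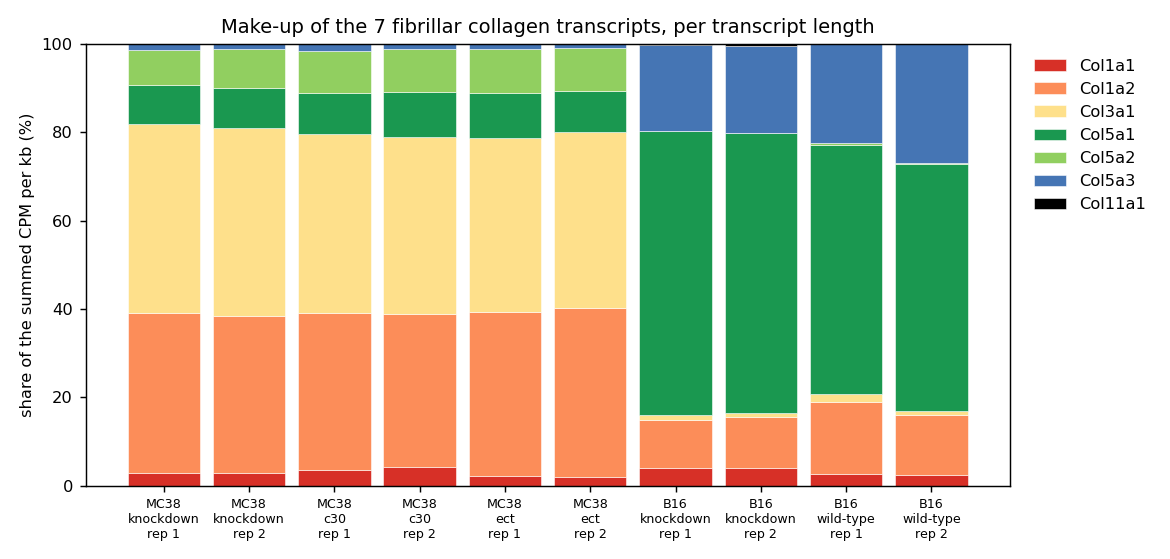
Share of each fibrillar collagen gene in the summed level of the 7 genes, in percent of CPM per kilobase of transcript, as 1 stacked column for each of the 10 libraries. Col3a1 and Col1a2 fill most of every MC38 column (39.3% to 42.7% and 34.7% to 38.4%), and Col5a1 and Col5a3 fill most of every B16 column (56.0% to 64.3% and 19.4% to 27.0%).

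The stacked columns show the makeup of each library, and the totals behind them differed as well. Summed without regard to length, the 7 genes reached 753 and 785 CPM in the MC38 knockdown, 495 and 485 CPM with c30, and 508 and 504 CPM with ect. In B16 they reached 122 and 130 CPM in the knockdown and 101 and 102 CPM with wild-type Sdc1. The c30 and ect libraries lay below both MC38 knockdown libraries, and the wild-type libraries below both B16 knockdown libraries. Because the samples were bulk RNA, fewer cells making a transcript and less of it per cell cannot be told apart.

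The first comparison in MC38 asked what the c30 form changed in knockdown cells. Col3a1, the type III chain, stood at 306 and 317 CPM in the knockdown and at 190 and 184 CPM with c30. The fitted log2 fold change was -0.74 (SE 0.05), which is 40.0% lower. Col1a2, the minor chain of type I collagen, stood at 251 and 255 CPM against 160 and 152 CPM, a log2 fold change of -0.69 (SE 0.05). For both genes the c30 libraries lay well below the knockdown libraries and close to each other. Among the type V chains, Col5a1 stood at 95.5 and 102 CPM in the knockdown and 66.4 and 70.4 CPM with c30 (log2 fold change -0.52, SE 0.07). Col5a2, its partner chain, stood at 68.8 and 78.2 CPM against 53.3 and 52.1 CPM (-0.47, SE 0.08). The groups did not overlap for either chain.

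Col1a1, the major chain of type I collagen, was lower with c30 by less than its partner Col1a2. It stood at 21.5 and 22.8 CPM in the knockdown and 17.6 and 20.4 CPM with c30, and the fitted log2 fold change of -0.21 had an SE of 0.13. Col5a3, the third type V chain, stood at 9.94 and 9.12 CPM against 8.02 and 6.27 CPM (-0.41, SE 0.20). Both genes had c30 libraries below the knockdown libraries, by margins close to the spread within a group. Col11a1 had 1 and 0 counts in the knockdown and 0 and 0 with c30, which is under the limit of detection in both groups. Of the 6 members tested, 4 passed an edgeR quasi-likelihood test at a Benjamini-Hochberg adjusted p under 0.05 over all 15031 genes, all lower, where 4.45% of all genes passed as lower and 3.3% as higher. The libraries did not overlap, with c30 below, for 6 of the 7 members and for 24.8% of all genes (23% with c30 above). Since the members were chosen with this comparison known, nothing is read from these counts.

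The ect form gave the same direction in all 6 detected members, with another order of sizes. Col1a1 stood at 21.5 and 22.8 CPM in the knockdown and 11.6 and 9.84 CPM with ect, a log2 fold change of -1.04 (SE 0.14) or 51.5% lower. Col5a3 stood at 9.94 and 9.12 CPM against 5.62 and 4.79 CPM (-0.87, SE 0.20). The 2 least abundant detected chains thus had the largest fold differences with ect. Col3a1 stood at 188 and 190 CPM with ect (-0.71, SE 0.05), and Col1a2 at 171 and 176 CPM (-0.53, SE 0.05). Col5a1 stood at 73.3 and 67.1 CPM (-0.48, SE 0.06) and Col5a2 at 57.8 and 55.0 CPM (-0.37, SE 0.07). For each of these 6 genes both ect libraries lay below both knockdown libraries. Col11a1 had 0 counts in both ect libraries. All 6 members tested passed as lower, where 4.61% of all genes did and 3.55% passed as higher. Non-overlap with ect below held for 6 of 7 members and 25.9% of all genes, and with ect above for 22.5% of them. Again nothing is read from this. The c30 and ect comparisons share the 2 knockdown libraries.

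**Figure D2:**
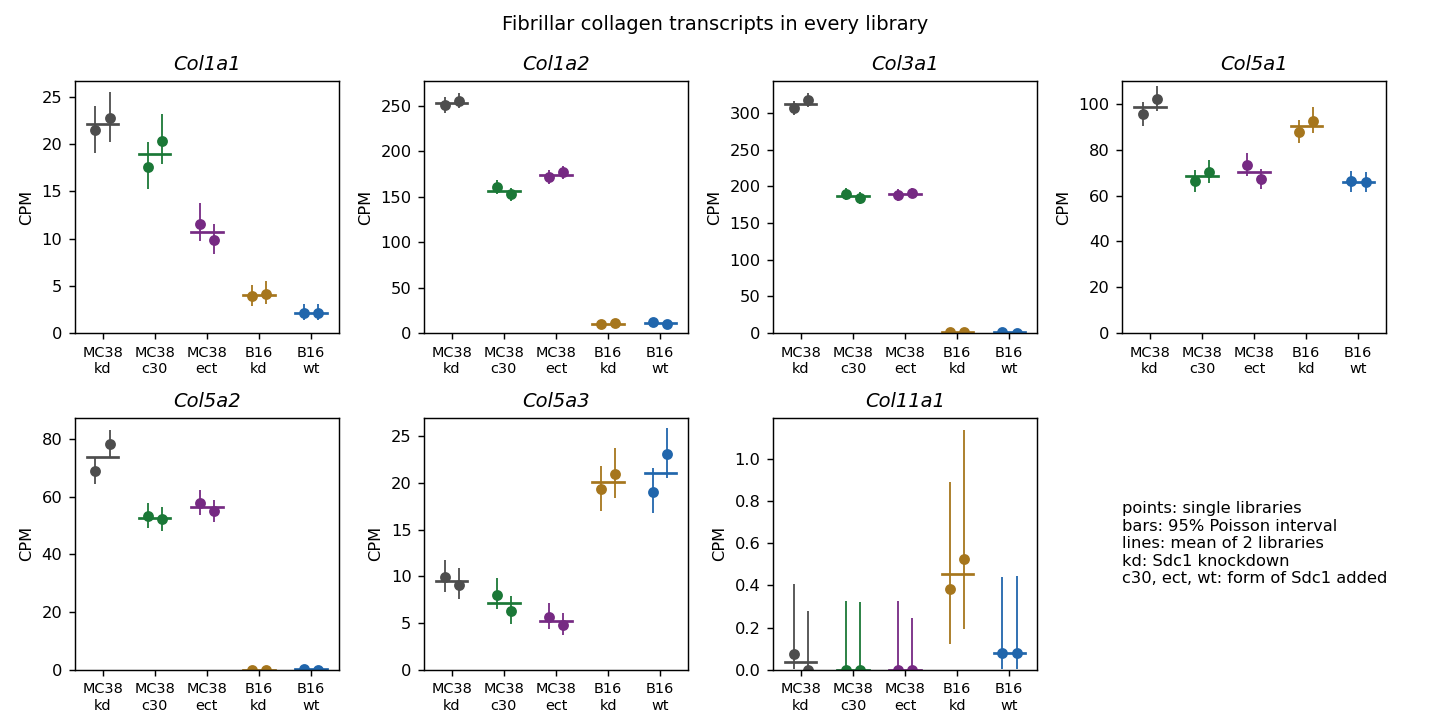
CPM of each fibrillar collagen gene in each library, in 1 panel per gene with its own linear axis from 0; points are single libraries, vertical bars 95% Poisson counting intervals and horizontal lines means of 2 libraries (kd is knockdown alone, wt the re-expressed wild-type Sdc1). The c30 and ect points lie below the knockdown points in the panels of the 6 detected chains in MC38, and B16 points lie far below MC38 points for Col1a2, Col3a1 and Col5a2 and above them for Col5a3.

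The plot of CPM by library shows that the replicates of a group lay close together for the abundant chains. Beside these differences, fibroblast and pericyte markers summed to 854 to 949 CPM in the MC38 knockdown, 852 to 902 CPM with c30 and 832 to 856 CPM with ect, with 8 of 12 at 1 CPM or more in every MC38 library. The sum does not show single markers. Pdgfra and Pdgfrb, both on this marker list, passed as lower with c30 and with ect (values below). They are named because they passed among the regulators, and they do not stand for the rest of the markers. Levels of the other markers are not given singly. The part of these markers in the collagen differences was not tested.

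Set directly against each other, c30 and ect differed most in Col1a1 among the tested members. Col1a1 was higher with c30 than with ect by 0.83 on the log2 scale (SE 0.14), or 1.78-fold (95% interval 1.46 to 2.16), and the libraries did not overlap. It was the 1 member that passed, where 0.299% of all genes passed in either direction and 0.133% of all genes passed as higher with c30. Col5a3 was 1.37-fold higher with c30 (interval 1.03 to 1.84) and did not pass. Col1a2 lay the other way, at 0.895 times its level with ect (interval 0.834 to 0.960), with non-overlapping libraries and no pass of the test. The remaining chains showed smaller differences, with intervals of 0.916 to 1.05 for Col3a1, 0.887 to 1.07 for Col5a1 and 0.838 to 1.04 for Col5a2. Of the 7 members, 2 had c30 libraries above ect, 2 below and 3 overlapped, against 20.6% above and 17.3% below among all genes. Nothing is read from these counts or passes, since the members were chosen with earlier results of these libraries known.

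**Figure D3:**
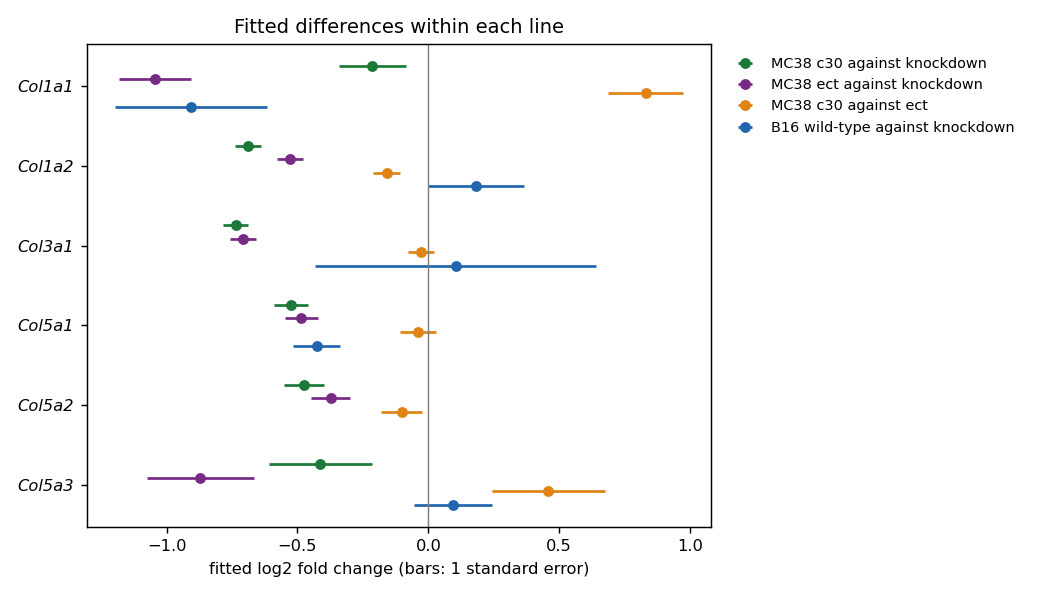
Fitted log2 fold change of the 6 tested fibrillar collagen genes (horizontal axis) in the 4 comparisons within a line, with bars of 1 SE; Col5a2 was not tested in B16. All points for c30 and ect against the knockdown lie below 0, and c30 against ect lies farthest from 0 for Col1a1 (0.83).

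The balance of the type I chains followed from these values. Col1a1 per kilobase was 0.0773 and 0.0804 times Col1a2 in the MC38 knockdown, 0.0991 and 0.121 times with c30, and 0.0611 and 0.0503 times with ect. The 3 groups did not overlap, and the counting intervals of the c30 libraries (0.0852 to 0.115 and 0.105 to 0.138) lay above those of the ect libraries (0.0508 to 0.0729 and 0.0423 to 0.0594). In B16 the ratio was 0.371 and 0.355 in the knockdown and 0.158 and 0.185 with wild-type Sdc1. In all 10 libraries Col1a1, which supplies more chains than Col1a2 to the common form of type I collagen, had the lower transcript level of the pair.

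**Figure D4:**
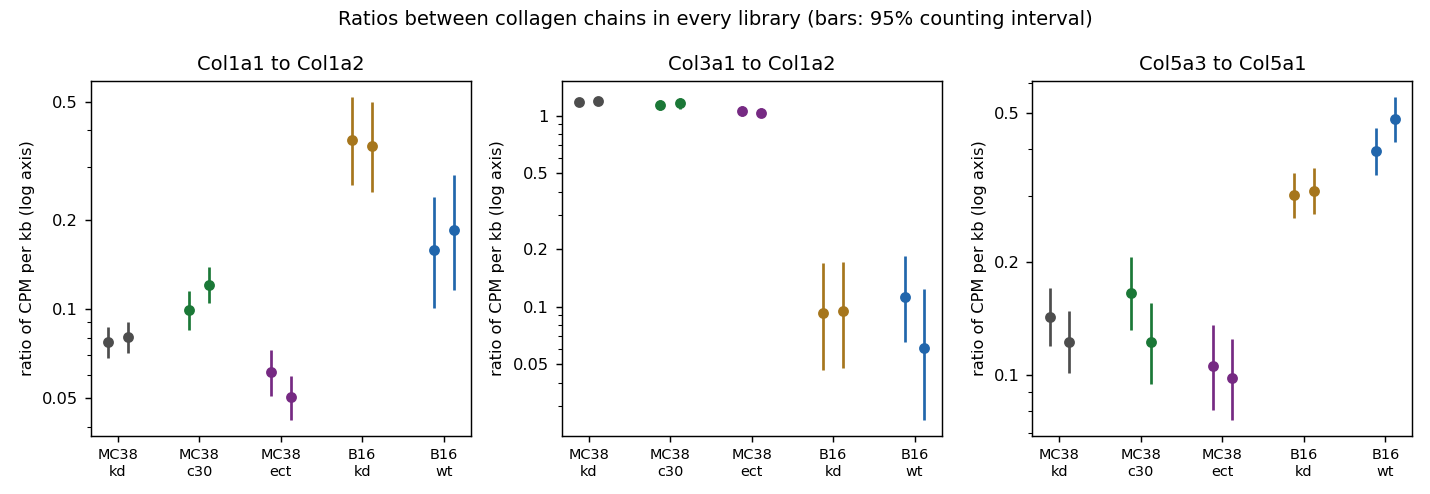
Ratio of the levels per kilobase of 2 fibrillar collagen genes in each library, on logarithmic axes, in 1 panel per pair; bars are 95% counting intervals (kd is knockdown alone, wt the re-expressed wild-type Sdc1). Col1a1 to Col1a2 is highest in the B16 knockdown (0.371 and 0.355) and lowest with ect in MC38 (0.0611 and 0.0503), and Col5a3 to Col5a1 is higher in all B16 libraries than in any MC38 library.

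The plot of ratios sets these beside a pair of type V chains. Col5a3 per kilobase was 0.143 and 0.123 times Col5a1 in the MC38 knockdown, 0.166 and 0.122 times with c30, and 0.105 and 0.0979 times with ect. In B16 it was 0.302 and 0.311 times in the knockdown and 0.396 and 0.482 times with wild-type Sdc1. The type V mixture therefore held more Col5a3 transcript relative to Col5a1 in every B16 library than in any MC38 library. Reads of Col5a1 cannot be told apart from those of the antisense genes Gm13372 and 2810430I11Rik, which overlap its exons, if the counting ignored strand; these had at most 46 counts in a library, against at least 754 for Col5a1. Exons of Col3a1 overlap those of the predicted gene Gm47302 on the same strand, and how shared reads were assigned is not stated.

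The B16 comparison asked what wild-type Sdc1 changed in knockdown melanoma cells. Col5a1 stood at 87.9 and 92.8 CPM in the knockdown and 66.2 and 65.8 CPM with wild-type Sdc1 (log2 fold change -0.43, SE 0.09). Col1a1 stood at 3.89 and 4.18 CPM against 2.14 and 2.08 CPM (-0.91, SE 0.29). For both, the wild-type libraries lay below the knockdown libraries. Col11a1, the cartilage-type chain, had 5 and 6 counts in the knockdown and 1 and 1 with wild-type Sdc1, a summed ratio of 5.63 (95% counting interval 1.23 to 52.3).

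The other chains overlapped in B16 or were too low to separate. Col5a3 stood at 19.3 and 21.0 CPM in the knockdown and 19.1 and 23.1 CPM with wild-type Sdc1, and Col1a2 at 9.47 and 10.6 CPM against 12.2 and 10.1 CPM. Their groups overlapped, with fold intervals of 0.872 to 1.31 and 0.885 to 1.45. Col3a1 rested on 12 and 12 counts in the knockdown and 18 and 8 with wild-type Sdc1. Its log2 fold change of 0.10 (SE 0.54) became 0.56 or -0.57 when wild-type replicate 2 or replicate 1 was left out. Col5a2 had 1 and 0 counts against 5 and 1, a difference not detectable at this depth. Of the 7 members 3 had wild-type libraries below and 1 above the knockdown, against 21.1% and 13.9% of all genes. The 1 above was Col5a2, where knockdown replicate 1 and wild-type replicate 2 each had 1 count and differed in CPM only through depth. Nothing is read from these numbers of members, or from the test of the members. None of the 5 members tested passed, and edgeR called 0% of 14336 genes. Of these, 791 had an unadjusted p under 0.05, while DESeq2 called 11 and limma-voom 0. Without wild-type replicate 1 the number of genes called was 1295, and without replicate 2 it was 326. In each of these fits the wild-type group had 1 library, assumed to vary like the knockdown group, whose 2 libraries alone gave the spread.

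Between the lines, the size of the difference depended on the chain. In the knockdown groups, Col3a1 was at 0.916 and 1.04 CPM in B16 against 306 and 317 CPM in MC38 (log2 fold change -8.26, SE 0.26). Col5a2 had 1 count over both B16 libraries and 1986 over both MC38 libraries, a ratio of 1805 (95% counting interval 324 to 71340). Col1a2 differed by -4.62 (SE 0.10) and Col1a1 by -2.41 (SE 0.19) on the log2 scale. Type III, type I and one type V chain were thus lower in B16, each with no overlap. Col5a1 was almost level between the lines, at 87.9 and 92.8 CPM in B16 against 95.5 and 102 CPM in MC38, with a fold interval of 0.846 to 1.04. Col5a3 was 2.17-fold higher in B16 (interval 1.74 to 2.71). Col11a1 had 11 counts over both B16 libraries and 1 over both MC38 libraries, a ratio of MC38 to B16 of 0.0826 (95% counting interval 0.00192 to 0.569). Of the 6 members tested 4 passed as lower and 1 as higher in B16, where 68.2% of all genes passed in either direction, 34.3% as lower and 33.8% as higher. Libraries did not overlap, with B16 below, for 5 of 7 members and 44.4% of all genes, and with B16 above for 2 and 40%. Nothing is read from these counts either.

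Of the fibrillar collagen genes outside the 7, Col11a2 had the highest level in both lines. In the B16 knockdown it reached 2.63 ± 0.232 CPM per kilobase (SD, n = 2), above the 1.88 ± 0.152 of Col1a2. Col11a2, a partner chain of Col11a1, was at 14.2 ± 1.25 CPM (SD, n = 2) in the B16 knockdown and 6.34 ± 1.06 CPM in the MC38 knockdown (log2 difference of 1.20, SE 0.19, edgeR adjusted p = 2.41e-06). Col27a1 was at 8.86 ± 2.49 and 3.34 ± 0.611 CPM (1.44, SE 0.26, edgeR adjusted p = 1.70e-05). Col2a1, the chain of cartilage type II collagen, had 51 counts over the B16 knockdown libraries against 3 in MC38, a ratio of MC38 to B16 of 0.0535 (95% counting interval 0.0107 to 0.165), and it too passed as higher in B16. Col24a1 had at most 6 counts in any library. In MC38 Col11a2 and Col27a1 did not pass with c30 or ect, and Col2a1 and Col24a1 were too low to test. Col2a1 had 3 counts over the MC38 knockdown libraries, 13 with c30 and 14 with ect. The ratio of knockdown to c30 was 0.195 (95% counting interval 0.0356 to 0.709) and that of knockdown to ect 0.209 (0.0386 to 0.750). The replicates were uneven, at 1 and 12 counts with c30 and 3 and 11 with ect, so nothing is read from these ratios. In B16 with wild-type Sdc1 the values were 11.3 ± 0.405 CPM for Col11a2, 4.49 ± 0.141 CPM for Col27a1 and 1.51 ± 0.00913 CPM for Col2a1, and none passed.

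The genes that modify, carry, bind and break down collagen were then read from the same fits. They number 158 on 10 lists, 157 of them in the table (Col21a1 had no row), and exclude the 7 chains. The lists, like the members, were chosen with earlier results of these data known. The called shares and adjusted p-values of their genes are therefore descriptions, and no excess over all genes is read from them. With c30, 26 of 117 tested fell and 3 rose, which is 24.8% called against 7.75% of all genes. Their median log2 fold change was -0.08, and the median over all genes was 0.00. With ect, 28 of 117 fell and 3 rose, 26.5% against 8.16%, with a median of -0.06. Without c30 replicate 1 the c30 count was 18, and without ect replicate 1 or 2 the ect count was 17 or 15. With DESeq2 the ect count was 18, and with all 10 libraries in 1 fit the counts were 10 and 11.

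Hydroxylases and chaperones of procollagen were among the genes that fell with both forms. Of 14 tested genes of hydroxylation and glycosylation, 4 fell with c30 and 4 with ect. Plod1, a lysyl hydroxylase, went from 180 ± 4.91 CPM in the knockdown to 143 ± 2.58 CPM with c30 (log2 difference of -0.33, SE 0.05, edgeR adjusted p = 7.53e-06) and had -0.30 (SE 0.05) with ect. P4ha1, a catalytic subunit of prolyl hydroxylase, fell by 0.26 and 0.32, and Plod2, which prepares telopeptide lysines for cross-links, fell by 0.30 and 0.38. Of 17 tested genes of folding and export, 4 fell with c30 and 6 with ect. Serpinh1, the collagen chaperone, went from 571 ± 9.14 CPM to 482 ± 9.81 CPM with c30 (-0.24, SE 0.04, edgeR adjusted p = 2.92e-05) and had -0.29 (SE 0.04) with ect. Sparc, a collagen-binding matrix protein, fell by 0.25 and 0.17, and Sec23a, a coat protein of export vesicles, by 0.24 and 0.23. These differences were smaller than those of Col3a1 and Col1a2 in the same comparison. None of the 6 tested genes of propeptide removal, among them Bmp1, passed with either form.

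Outside the cell, cross-linking and fibril-binding genes also held calls. Of 5 cross-linking genes tested, Loxl4, a lysyl oxidase, fell with c30 (-0.26, SE 0.05) and Tgm2, a transglutaminase, fell with c30 (-0.44, SE 0.11) and ect (-0.46, SE 0.11). Of 12 fibril-binding proteins tested, 5 fell with c30 and 3 with ect. Prelp, a leucine-rich proteoglycan, was at 11.1 ± 0.817 CPM in the knockdown, 4.99 ± 0.701 CPM with c30 (-1.15, SE 0.20, edgeR adjusted p = 1.54e-05) and 7.57 ± 0.356 CPM with ect (-0.54, SE 0.18, edgeR adjusted p = 0.0458). Tgfbi fell by 0.49 and 0.57, Thbs1 by 0.56 with c30, and Aebp1 by 0.16 with ect. Of 3 fibril-associated collagens tested, Col9a3 fell with ect (-0.60, SE 0.17).

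Receptors, proteases and regulators completed the lists. Of 7 receptors tested, Ddr2, a collagen-binding kinase, fell with c30 (-0.20, SE 0.04) and ect (-0.13, SE 0.04), and Mrc2, which takes up collagen fragments, fell with ect (-0.19, SE 0.05). Of 10 genes of breakdown, 3 fell with c30 and 4 with ect, among them the protease genes Mmp14 (-0.35 and -0.44) and Mmp2 (-0.24 and -0.41), the inhibitor gene Timp3 (-0.22 and -0.17) and the cathepsin gene Ctsb, which passed with ect (-0.18) and had -0.13 with c30. Of 41 regulators, 7 fell and 3 rose with each form. Klf4, a zinc finger factor, went from 373 ± 3.62 CPM to 258 ± 0.650 CPM with c30 (-0.53, SE 0.05, edgeR adjusted p = 5.82e-15) and 276 ± 18.5 CPM with ect (-0.43, SE 0.05). The platelet-derived growth factor receptor gene Pdgfrb fell by 0.41 and 0.46, and Pdgfra by 0.46 and 0.57, with c30 and ect. The risers, named after their values were seen, were Nfya, Fosl1 and Runx1 with c30 and Ets1, Jun and Runx1 with ect, with log2 fold changes of 0.18 to 0.43. Egr1, an immediate early factor, fell with c30 (-0.89, SE 0.15). It was the 1 gene of 117 that separated both forms, where 0.299% of all genes passed. Its level was 10.1 ± 0.0858 CPM with c30 and 21.4 ± 2.12 CPM with ect (-1.10, SE 0.14, edgeR adjusted p = 9.23e-08). Of the named genes, 8 of 18 with c30 and 9 of 19 with ect passed under every alternative setting run. Those that passed least often were Prelp with ect, under 3 of 10 settings, and Ddr2 with ect, under 5 of 11, and of the risers Nfya and Fosl1 passed under 4 of 11.

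**Figure D5:**
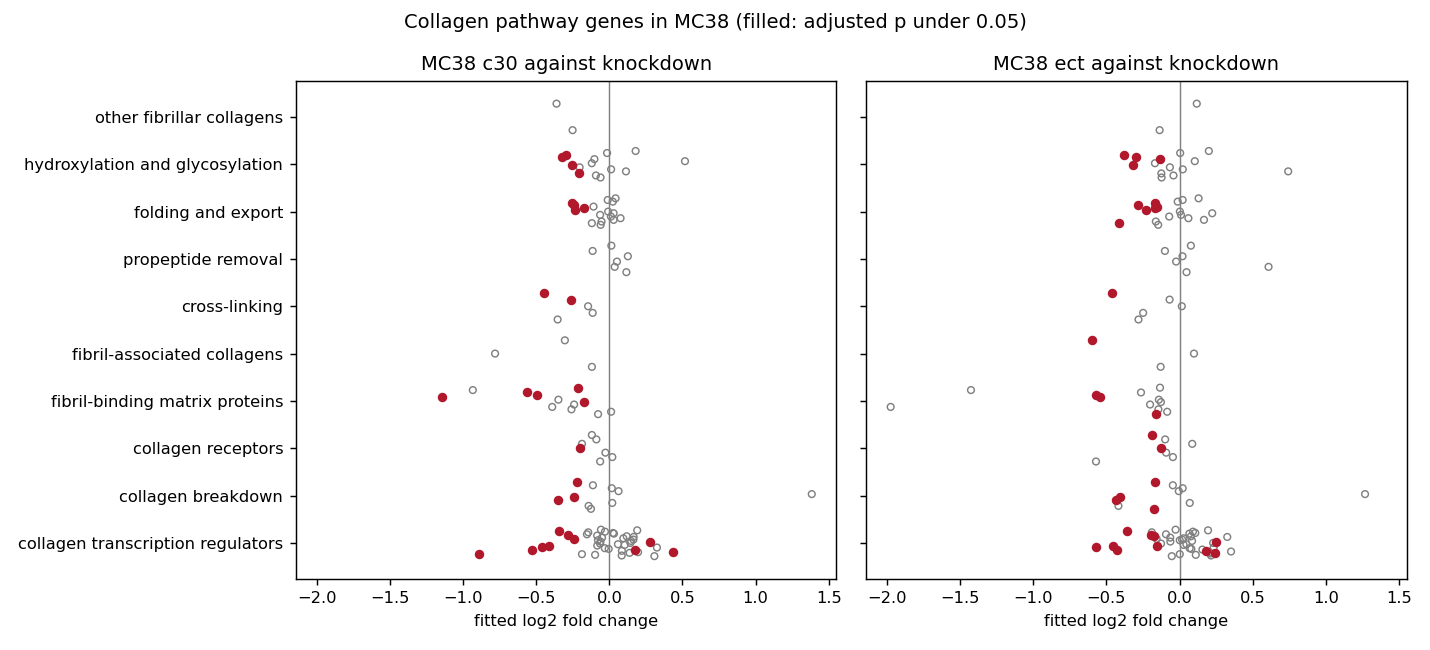
Fitted log2 fold change (horizontal axis) of each tested collagen pathway gene in MC38, by list, with c30 against the knockdown on the left and ect against the knockdown on the right; filled points had an edgeR adjusted p under 0.05. Filled points lie below 0 except for 3 regulators in each panel, and the lists of propeptide removal and other fibrillar collagens hold none.

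In the plot of the pathway lists the called points stood on the lower side in every list that held any, except for the risers among the regulators. In B16 with wild-type Sdc1, edgeR called 0 of 111 tested pathway genes, while DESeq2 called 2 and limma-voom 0. In edgeR 14 of the 111 had an unadjusted p under 0.05, against 791 of all 14336 genes tested, and nothing is read from this. Thbs1 had the smallest of those p-values, at 70.7 ± 4.80 CPM against 119 ± 5.13 CPM (log2 difference of -0.72, SE 0.09, edgeR adjusted p = 0.101). It was named after its value was seen. The difference between the B16 effect and the c30 effect, tested in edgeR over all 10 libraries after seeing the data, passed for 2 of 127 pathway genes, Bmp1 and Adamts14, where 0.284% of all genes passed. The difference from the ect effect passed for 1 of 127, Plod2, where 0.486% passed.

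Between the knockdown groups of both lines, 36 of 127 tested pathway genes were higher in B16 and 66 lower, 80.3% called against 68.2% of all genes. Of 13 fibril-binding proteins tested 4 were higher in B16 and 7 lower. The higher ones, named after their values were seen, were Postn (6.57), Thbs1 (2.41), Fn1 (1.68) and Matn2 (0.52). Bgn, which codes for biglycan, was at 1.00 ± 0.310 CPM in B16 and 1051 ± 59.5 CPM in MC38 (log2 difference of -9.96, SE 0.24, edgeR adjusted p = 6.63e-29), and Tgfbi and Tnxb were lower by -10.53 and -8.69. Of 15 genes of hydroxylation and glycosylation tested 7 were higher and 4 lower in B16. P3h4 had 1 count over both B16 libraries against 1348 in MC38, a ratio of 1225 (95% counting interval 219.6 to 48434), whereas P3h2, a prolyl 3-hydroxylase, was higher in B16 at 62.7 ± 5.67 against 3.38 ± 1.08 CPM (4.25, SE 0.21). P4ha1 was lower (-0.75). Of 18 genes of folding and export 5 were higher and 8 lower, with Fkbp10 at -7.94, Sec24d at -1.42 and Sparc at -0.83. Of 6 genes of propeptide removal none was higher and 5 were lower, among them Pcolce2 (-7.37), Bmp1 (-1.04) and Pcolce (-0.74).

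Cross-linking enzymes differed in both directions between the lines, with Loxl4 at -6.45 and Loxl1 at -6.78 on the log2 scale and Loxl3 at 2.18. Of 11 breakdown genes tested 4 were higher and 5 lower in B16, with Mmp2 at -7.27, Timp3 at -3.90 and Timp1 at -4.58 among the lower and Mmp14 at 0.88, Mmp15 at 4.27, Ctsb at 0.80 and Pepd at 0.62 as the higher ones, these last named after their values were seen. The fibril-associated collagens ran the other way for Col9a1, at least 56.8-fold higher in B16 than a floor of 3 counts over the MC38 group, and Col12a1 (3.84, SE 0.47), while Col16a1 was lower (-2.10, SE 0.08). Of 9 receptors tested 4 were higher in B16, among them Adgrg1 (4.20), Itga1 (4.44) and Ddr1 (1.30), and 3 were lower, namely Mrc2 (-6.74), Itga10 (-1.75) and Cd44 (-0.22), named after their values were seen. Of the regulators, Klf4 (-7.42), Prrx1 (-9.79), which is a mesenchymal homeobox factor, and Sox9 (-6.73) were lower. Fibroblast and pericyte markers differed between the lines in the same direction as Col3a1 and Col1a2 (832 to 949 against 47.2 to 60.4 CPM), and their part in the result was not tested.

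The genes whose pattern was most like each chain were ranked by Pearson r of log2 CPM over the 6 MC38 libraries among 9875 genes. They were Trib2, Lman1 and Itgb4 for Col3a1, Fech, Mgat3 and Rlf for Col1a2, and Morc4, Pced1a and Rpn1 for Col1a1. For the type V chains they were Gpr108, Dock11 and H2-T23 (Col5a1), Arntl, Epb41l3 and Spred1 (Col5a2), and Anpep, Tle2 and Nkiras2 (Col5a3). The values of r ran from 0.989 to 0.998. With 6 libraries of 3 groups from 1 line, which share the same knockdown libraries, such values are the top of a long list and describe these libraries only.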

How the data were processed

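The deposited table holds raw counts per gene, made by the authors from paired-end reads. Mouse build GRCm39 and the programs HISAT2 2.0.5, Trimmomatic, featureCounts, HTSeq and DESeq2 are named, per the submitters' processing notes. Their order, the annotation release, the strand setting and the handling of reads with several matches are not given in the sources used here. Of 60676 rows, 57180 had Ensembl identifiers and 51884 were matched to a symbol. The reference used for names, lengths and overlaps was GENCODE M21 on GRCm38, so no gene coordinates are given, and the RefSeq promoter windows are labelled with their own build.

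The members and the gene lists were chosen with earlier results of these data known. Levels are CPM of the library total with exact Poisson intervals at 95%, which cover counting error only, as do ratio intervals. Genes were tested in R 4.3.3 with edgeR 4.0.16 (filterByExpr by group, TMM, robust dispersions, quasi-likelihood test, 2-sided), with Benjamini-Hochberg adjustment over all genes tested. MC38 used 1 fit of 6 libraries, B16 a fit of 4, and the lines all 10. SEs come from the fit, and fold intervals are 95% intervals of a normal distribution with those SEs. They leave out the degrees of freedom of the quasi-likelihood test, so SEs and intervals can look tighter than that test. The spread between the libraries of a group beyond counting error (the common coefficient of variation) came to 4.84% for MC38, 8.68% for B16 and 6.65% for the 10 libraries. It may be technical. Means ± SD are CPM over 2 libraries.

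Named were the 7 members, the other fibrillar collagens, and up to 3 called genes per list and comparison with the smallest adjusted p and a mean of at least 1 CPM. Like genes needed a mean of at least 5 CPM and used a prior count of 2. Alternatives were RLE size factors, no filter, a minimum of 5 CPM in 2 libraries, limma-voom (limma 3.58.1), DESeq2 1.42.0, a replicate block, all 10 libraries, and each library left out. A crossed pairing and the test of B16 against MC38 effects were chosen after seeing the data. The tests were tried on simulated counts. Figures used matplotlib 3.10.9.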

Additional observations from a re-analysis of the deposited data

Results flagged for a closer look

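Klf4 was lower than the knockdown in all c30 and ect libraries of MC38, with log2 fold changes of -0.53 and -0.43. In B16 both wild-type libraries lay above the knockdown, with a log2 fold change of 0.15 that did not pass, at 2.30 ± 0.0985 CPM against 2.11 ± 0.0349 CPM. P3h2, a prolyl 3-hydroxylase, had 0.74 with ect, with both ect libraries above the knockdown, and -0.17 in B16, with both libraries below; neither change passed its own test. Plod2, a lysyl hydroxylase, had -0.30 with c30 and -0.38 with ect, against 0.22 in B16, which did not pass. The differences of Klf4 and P3h2 between the lines were tested after seeing the data, with edgeR over all 10 libraries, and did not pass. In the same test, the B16 effect minus the ect effect of Plod2 was 0.60 (edgeR adjusted p = 0.0169), and minus the c30 effect it was 0.52 (edgeR adjusted p = 0.0618). Bmp1, which removes the C-propeptide of procollagen, had a B16 effect minus c30 effect of -0.53 (edgeR adjusted p = 0.0377), and Adamts14, an N-propeptidase, of -0.65 (edgeR adjusted p = 0.0454). These were 2 of 127 pathway genes in the test against c30, where 0.284% of all genes passed, and 1 of 127 in the test against ect, where 0.486% passed. The c30, ect and wild-type forms differ as well as the lines, so form and line cannot be told apart.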

How the results depend on the processing

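No member changed direction in MC38 against the knockdown under the alternatives run, Col3a1 ranging from -0.76 to -0.72 with c30 and from -0.74 to -0.69 with ect on the log2 scale. Of genes called with c30 (1165), DESeq2 gave 513 and all 10 libraries in 1 fit 254, with 10 pathway genes (29 otherwise); leaving out 1 library gave 464 to 992, with 18 to 29 pathway genes. With ect (1227 and 31) DESeq2 gave 600 and 18, all 10 libraries 249 and 11, and leaving out 1 library 776 to 984 and 15 to 29. Of c30 against ect (45) DESeq2 gave 19, all 10 libraries 8 and leaving out 1 library 18 to 44. In B16 (0 and 0), no filter gave 42 genes and 4 pathway genes, DESeq2 11 and 2, all 10 libraries 27 and 5, and leaving out 1 library 3 to 1295 and 0 to 28. Replicate number as a block gave 15 and 1 there. The difference in log2 CPM between replicate 1 and replicate 2 was also correlated between groups over 11012 genes. Its correlation was -0.16 between both B16 groups and within 0.06 of 0 for every other pair of groups. These values gave no sign that the numbers pair the libraries. A crossed pairing gave 5 and 1. The cause of these shifts was not tested. A group left with 1 library was assumed to vary like the other groups of its fit. The comparison of the lines stayed within 1.5 times. Depth limits Col11a1 in all libraries and Col3a1 and Col5a2 in B16, where a few counts decide the value.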
